A study of Mus musculus with 23 samples.

Results

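Str/ort mice were compared with CBA mice at 18 weeks in articular cartilage, with 4 arrays per strain. These 8 arrays are those whose titles name either strain at 18 weeks, out of 23 arrays in the series, which also covers both strains at 8 and 40 weeks. All animals were male and untreated, and the protocol gives the age of this group as 18 to 20 weeks. Str/ort is a strain that develops osteoarthritis spontaneously with age, and CBA is the strain it was set against. The series text calls the arrays biological replicates, the number of mice behind each array is not given, and p-values therefore measure the spread between these samples. RNA was measured on Affymetrix Mouse Gene 1.0 ST arrays, and every value below is a log2 RMA signal, so a difference of 1 is a 2-fold change. A gene was called at a limma adjusted p under 0.05 over 19937 genes, and differences are Str/ort minus CBA ± SE.

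Articular cartilage is a tissue of chondrocytes embedded in a matrix of type II collagen and the proteoglycan aggrecan, with lubricin at its surface. In osteoarthritis, collagenases and aggrecanases break this matrix down while the joint tissues lay down other collagens and matricellular proteins. Beneath the cartilage lies bone with its marrow, where red cells, neutrophils and other blood cells form, and fragments of both can come along when cartilage is removed from a mouse joint.

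The markers of cartilage were present in all 8 arrays. Prg4, which encodes lubricin, read 13.37, 13.46, 13.37 and 13.48 in CBA replicates 1 to 4 and 13.70, 13.74, 13.67 and 13.37 in Str/ort. Acan, the core protein of aggrecan, read 10.94, 10.73, 10.22 and 10.53 in CBA against 11.05, 12.23, 12.00 and 10.09 in Str/ort. The strains overlapped for both genes, and the Str/ort arrays spread more widely for Acan than the CBA arrays did. Markers of marrow and muscle were present as well. The mean over 39 red cell markers was 11.48 to 11.74 in CBA and 10.44 to 10.98 in Str/ort, that over 23 neutrophil markers was 11.75 to 11.95 and 11.62 to 11.97, and that over 42 skeletal muscle markers was 9.15 to 11.18 and 7.64 to 10.97. The red cell markers thus differed between the strains without overlap, while the neutrophil and muscle markers overlapped. The differences below are those of whole samples, in which fewer cells of a type and less RNA per cell cannot be told apart.

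Limma called 1742 of 19937 genes at this age (8.74%), 541 higher in Str/ort (2.71%) and 1201 lower (6.02%). Among the called genes the median size of the difference was 0.53, and 61 genes were higher and 91 lower by more than 1. In 5267 of all genes (26.4%) every array of one strain lay above every array of the other, and 1630 of the called genes were among them. Leaving out any single 18-week array left 635 of the calls in place. The count fell to 687 on dropping CBA replicate 3 and to 881 on dropping Str/ort replicate 1, and was 1755 on dropping Str/ort replicate 4. Arrays at the other ages enter the shared estimate of the spread, and 2 of them stood apart from their groups, CBA 8 weeks replicate 1 and CBA 40 weeks replicate 3. Without these 2 arrays 5150 genes were called, among them all 1742.

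Because the red cell markers separated the strains, the comparison was also fitted with the muscle and red cell means as covariates. That fit called 221 genes, 116 of them among the 1742, and without the 2 arrays that stood apart it called 36, of which 31 were among the 1742. The red cell means of the strains do not overlap, so both fits extend a slope seen inside each group over the space separating the strains. The median gene had an SE of 0.166 in the first and 0.194 in the second, against 0.117 without covariates. The part that the red cell difference has in the other differences was not tested beyond these fits, and their values are given with the groups below.

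**Figure D1:**
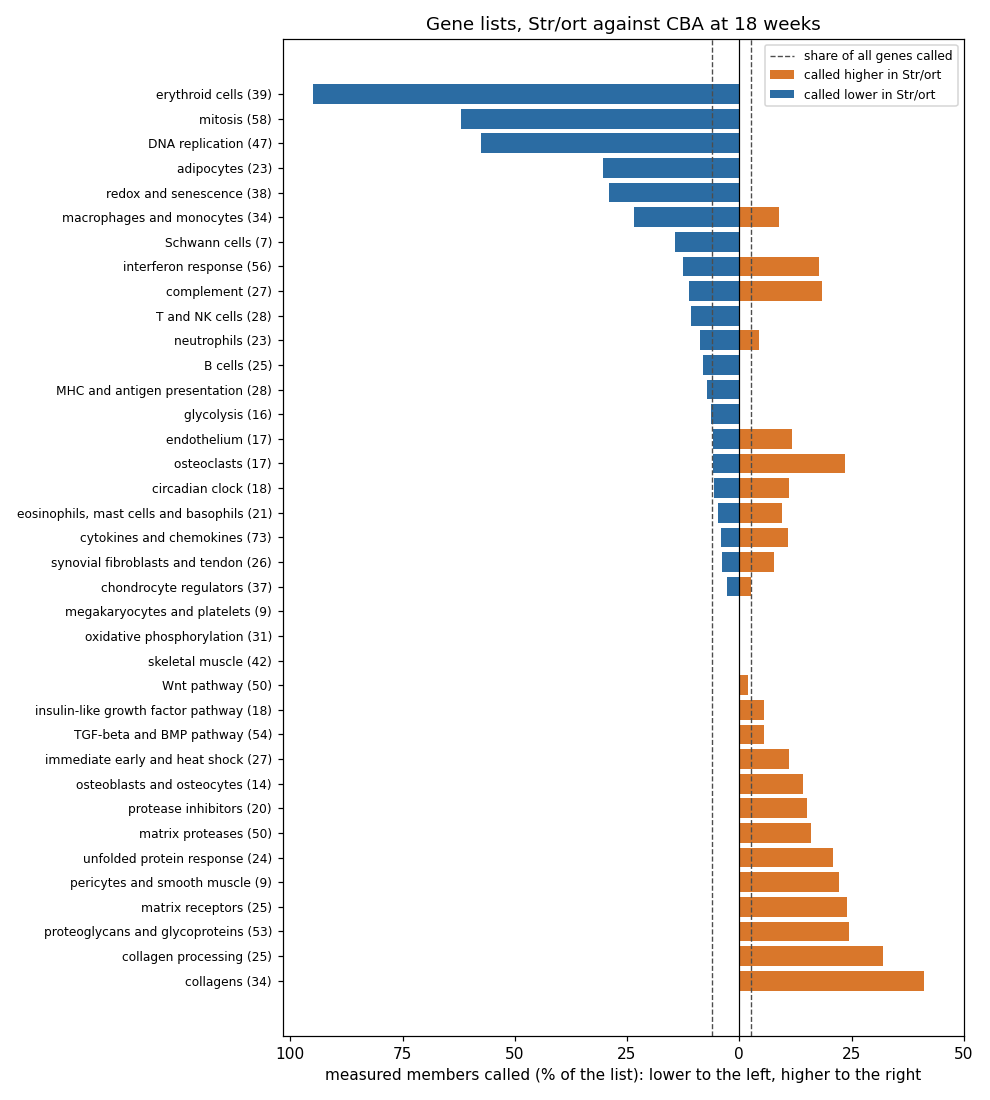
Share of the measured members of each gene list called higher (right, orange) or lower (left, blue) in Str/ort at 18 weeks, in percent of the list, with the number measured in brackets. Dashed lines mark the share of all 19937 genes called higher (2.71%) and lower (6.02%); red cell (erythroid), mitosis and DNA replication genes reach farthest to the left and collagens farthest to the right.

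Genes of the collagen list were higher in Str/ort. Of its 34 measured genes 14 were called higher and none lower, against 2.71% of all genes called higher. All 34 differences were positive, against 54.9% of all genes. The median difference was 0.41, against 0.03 over all genes. The type VI collagens, which form the beaded filaments around chondrocytes and in other connective tissue, led the list. Of the 4 type VI genes that the list holds 3 were called. Col6a5 and Col25a1 lie outside the list and were also called, in a direction not given here. Col6a3 read 10.38, 10.58, 9.88 and 10.57 in CBA and 12.06, 11.74, 11.84 and 11.30 in Str/ort. Every Str/ort array lay above every CBA array, and the difference was 1.38 ± 0.24 (2.61-fold, adjusted p = 0.000928). Col6a2 differed by 1.02 ± 0.20, with values of 9.32 to 10.06 in CBA and 10.42 to 10.95 in Str/ort. CBA replicate 3 had the lowest level of both genes in its strain, and Str/ort replicate 4 the lowest in its own.

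Among the 11 fibril-forming collagens 4 were higher, with a median of 0.53. Col3a1, the type III collagen of soft connective tissue and repair tissue, read 10.69, 10.89, 10.00 and 10.63 in CBA and 12.09, 11.28, 11.86 and 11.19 in Str/ort, a difference of 1.05 ± 0.30 (adjusted p = 0.031). Col5a2, which is built into type I collagen fibrils, differed by 0.82 ± 0.21. Col2a1, the collagen that defines cartilage, was not called at 0.37 ± 0.26. It read 10.37, 9.89, 9.77 and 10.34 in CBA and 10.04, 10.24, 11.38 and 10.19 in Str/ort, so that replicate 3 alone lay above the CBA range. Col10a1, the collagen of hypertrophic chondrocytes, was at 0.49 ± 0.37 and also not called. Of 7 fibril-associated collagens 3 were higher, led by Col12a1 of dense connective tissue at 1.12 ± 0.28. Of 9 genes for network collagens of basement membranes 3 were higher, among them Col4a1 at 0.59 ± 0.09 and Col4a2 at 0.57 ± 0.10.

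Enzymes that build and mature collagen went the same way, with 8 of 25 higher, none lower and a median of 0.38. Of 11 prolyl and lysyl hydroxylases 3 were higher, among them P4ha1, a prolyl hydroxylase subunit (0.58 ± 0.14), and Plod2, a lysyl hydroxylase of collagen telopeptides (0.82 ± 0.24). Serpinh1, the collagen chaperone HSP47, was higher by 0.57 ± 0.16. Pcolce, which enhances the cleavage of procollagen, was higher by 0.67 ± 0.19, and Bmp1, the protease that makes this cut, by 0.50 ± 0.15. Without CBA array 3 the collagen calls fell to 6 and those of the processing enzymes to 0, and Col3a1, Col5a2, Col12a1, P4ha1, Plod2, Serpinh1, Pcolce and Bmp1 lost theirs, several of them also without CBA array 1 or 4, or Str/ort array 1, 2 or 3 (highest adjusted p = 0.164 over all single arrays left out), while Col6a3, Col6a2, Col4a1 and Col4a2 kept theirs whichever array was left out. CBA replicate 3 had the highest red cell mean of its strain, 11.74, and the lowest collagen mean, 8.81, and Str/ort replicate 4 likewise had the highest red cell mean, 10.98, and the lowest collagen mean, 9.33. The other arrays did not keep this order. CBA replicate 2, with the next highest red cell mean, 11.60, had the highest collagen mean of its strain, 9.21. Str/ort replicate 3, likewise next at 10.81, had the highest collagen mean of its own, 9.82. With the muscle and red cell means as covariates none of the 34 collagens was called and their median was 0.09. Col6a3 was then at 1.16 ± 0.40 (adjusted p = 0.159), or at 0.07 without the 2 arrays that stood apart.

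Of 53 proteoglycans and glycoproteins of the matrix 13 were higher and none lower, with a median of 0.31. Matricellular proteins, which signal to cells from the matrix rather than holding it together, supplied 7 of these among 15 measured. Postn, which encodes periostin, read 10.16, 10.47, 9.60 and 10.05 in CBA and 12.24, 11.24, 11.79 and 11.15 in Str/ort. The 2.90-fold difference (1.54 ± 0.29, adjusted p = 0.00237) separated the strains in all 8 arrays. Tnn, which encodes tenascin-W, read 8.17, 8.27, 7.50 and 8.09 against 10.55, 8.71, 9.65 and 8.79, a difference of 1.42 ± 0.41. Tnfaip6, a hyaluronan-binding protein of inflamed joints, read 6.45, 7.14, 6.25 and 6.97 against 8.85, 8.45, 9.38 and 7.35, a difference of 1.80 ± 0.47. Replicates 1 and 3 of Str/ort stood highest for Postn, Tnn and Lum alike. Lum, a leucine-rich proteoglycan of collagen fibrils, was higher by 0.85 ± 0.24, and Vcan, the aggregating proteoglycan of soft matrix, by 0.76 ± 0.19. Tnc, the tenascin of repairing tissue, was higher by 0.57 ± 0.13.

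None of the 9 cartilage glycoproteins was called, and Comp, which bridges cartilage collagen fibrils, was at 0.18 ± 0.33 with overlapping strains. Acan was at 0.74 ± 0.47 and Prg4 at 0.20 ± 0.10, neither of them called. The calls of Tnn, Tnfaip6 and Lum were lost without CBA array 1 or 3, or Str/ort array 1 or 3, those of Tnn and Lum also on dropping CBA array 4, and that of Vcan without CBA array 3, or Str/ort array 1 or 2 (highest adjusted p = 0.143). Postn and Tnc kept theirs. In the fit with both covariates no member of this list was called, and Postn was at 1.36 ± 0.47 (adjusted p = 0.17).

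Of 50 matrix-degrading enzymes 8 were called higher and none lower, with a median of 0.24. Without the 2 arrays that stood apart 26 were higher and 1 lower. Of 17 matrix metalloproteinases 4 were higher. Mmp13, the main collagenase of cartilage, read 11.32, 10.79, 10.73 and 10.75 in CBA and 12.49, 12.06, 12.84 and 12.24 in Str/ort. CBA replicate 1 stood above the other CBA arrays and still below every Str/ort array, and the difference was 2.84-fold. Mmp19 read 8.53, 8.97, 8.53 and 8.60 in CBA and 10.32, 9.60, 9.67 and 9.17 in Str/ort, a difference of 1.03 ± 0.24 (2.04-fold, adjusted p = 0.00911). Mmp14, the membrane-bound collagenase that activates pro-MMP2, was higher by 0.85 ± 0.19, and its substrate Mmp2, a gelatinase, by 0.88 ± 0.21. The stromelysin Mmp3 read 7.99, 8.84, 7.74 and 7.84 in CBA and 10.15, 8.69, 9.40 and 8.16 in Str/ort. Its difference of 0.99 ± 0.35 was not called (adjusted p = 0.0805), and the strains overlapped.

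Of 15 aggrecanases and related enzymes 1 was called. This was Adamts12, which degrades COMP in culture, at 0.54 ± 0.14, while the main aggrecanases Adamts4 (0.48 ± 0.17, adjusted p = 0.079) and Adamts5 (0.43 ± 0.18, adjusted p = 0.152) were not called. Htra1, a serine protease of matrix proteins, was higher by 0.95 ± 0.25, and no cathepsin among 6 was called. Of 20 protease inhibitors 3 were higher. Timp1, the inducible inhibitor of metalloproteinases, read 10.09, 10.66, 9.68 and 10.17 against 12.12, 11.96, 11.81 and 10.64. Str/ort replicate 4 lay just inside the CBA range, and the difference was 2.78-fold. Timp2 was higher by 0.56 ± 0.15, and Timp3, the inhibitor that is held in the matrix, was at 0.29 ± 0.18 and not called.

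Mmp13, Mmp19, Mmp14 and Timp1 kept their calls whichever array was left out. Mmp2 lost its call on dropping CBA array 3, or Str/ort array 1, Adamts12 without those 2 or CBA array 1, and Htra1 and Timp2 without CBA array 1 or 3, or Str/ort array 1, 2 or 3 (highest adjusted p = 0.117). On dropping Str/ort array 4, Mmp3 (adjusted p = 0.0187) and Adamts4 (adjusted p = 0.0366) passed, and Mmp3 also without CBA replicate 2. With both covariates Mmp13 was at 1.80 ± 0.34 and called (adjusted p = 0.00857), and without the 2 arrays that stood apart it was at 1.49 and not called (adjusted p = 0.299). Mmp14 and Timp1 were then at 0.11 and 0.16.

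**Figure D2:**
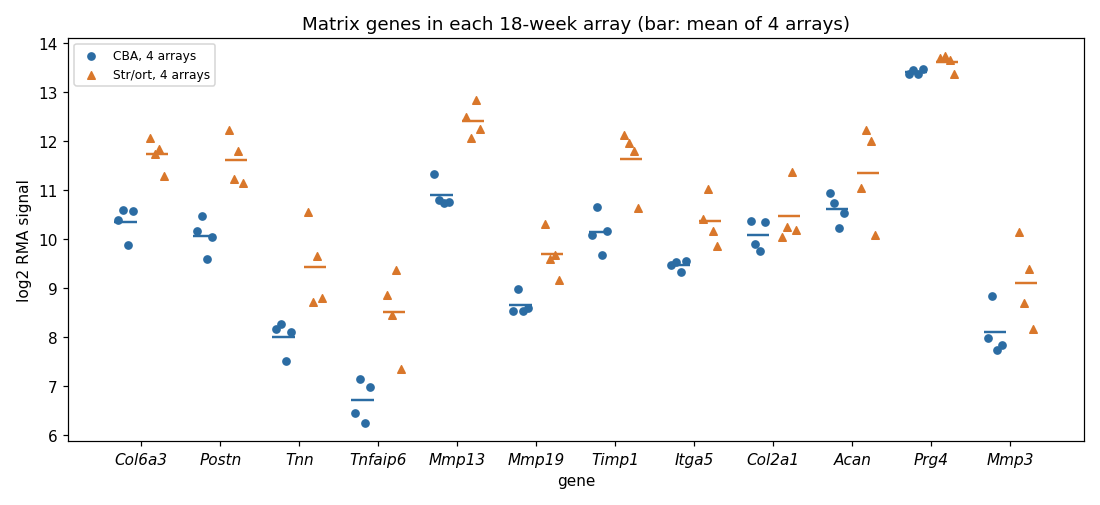
Log2 RMA signal of 12 genes of the matrix, its enzymes and its receptors in each 18-week array, with 4 CBA arrays (blue circles) and 4 Str/ort arrays (orange triangles) per gene and a bar at each strain's mean; levels are not comparable between genes. Col6a3, Postn, Tnn, Mmp13 and Mmp19 separate the strains, while Col2a1, Acan, Prg4 and Mmp3 overlap.

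Receptors through which cells bind matrix were higher in 6 of 25 cases and lower in none, with a median of 0.30. Itga5, the fibronectin receptor subunit, read 9.48, 9.53, 9.34 and 9.55 in CBA and 10.42, 11.03, 10.16 and 9.86 in Str/ort (0.89 ± 0.21). Itgb8, a partner of integrin alpha v that activates latent TGF-beta, was higher by 0.80 ± 0.15, and Itgav itself by 0.56 ± 0.12. Sdc2, a heparan sulphate proteoglycan of the cell surface, was higher by 0.90 ± 0.19. All 4 kept their calls whichever array was left out, and none of the 25 was called with both covariates.

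Genes of the signalling pathways that steer chondrocytes are set beside the 2.71% of all genes called higher and 6.02% called lower. In the TGF-beta and BMP pathway 3 of 54 were higher (5.56%) and none lower, with a median of 0.16. Of these 54 differences 42 were positive, against 54.9% of all genes. None of its 15 ligands, 12 inhibitors or 12 mediators and targets was called. The called members were the receptors Acvrl1 (0.52 ± 0.12) and Tgfbr1 (0.39 ± 0.10) and the latent TGF-beta binding protein Ltbp2, and Tgfbr1 lost its call on dropping CBA array 3, or Str/ort array 2 (highest adjusted p = 0.0723). In the Wnt pathway 1 of 50 was called (2.0%), the receptor Fzd1, which was higher. Among 37 chondrocyte regulators the growth factor receptor Fgfr1 was higher (0.61 ± 0.16) and Sox6, a partner of Sox9 in cartilage, was lower. Sox6 read 10.79, 10.89, 11.09 and 10.78 in CBA and 10.21, 10.20, 10.30 and 10.42 in Str/ort, without overlap. Sox9, the master regulator of chondrocytes, read 9.59, 9.50, 9.03 and 9.44 against 9.57, 10.49, 10.50 and 9.19, and its difference of 0.55 ± 0.25 was not called. Sox6 is also expressed by red cell precursors, and with both covariates it was at -0.26 ± 0.14 (adjusted p = 0.399). Fgfr1 lost its call on dropping CBA array 3, or Str/ort array 1, 2 or 3 (highest adjusted p = 0.122), and Sox9 was called on dropping Str/ort array 4 (adjusted p = 0.0375). No gene of these 3 lists was called with both covariates, where Acvrl1 was at 0.77 ± 0.20 (adjusted p = 0.0612).

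Genes of red cell formation were lower in Str/ort almost without exception. Of 39 measured red cell genes 37 were called lower and none higher, against 6.02% of all genes called lower, with a median of -0.87. The list held all 10 genes of haem synthesis and iron supply, all 11 of the membrane skeleton and 4 of 6 transcription factors. The 2 that were not called were the factors Nfe2 (-0.38, adjusted p = 0.184) and Zfpm1 (-0.59, adjusted p = 0.101). Alad, the enzyme of the second step of haem synthesis, read 13.33, 13.48, 13.38 and 13.49 in CBA and 12.00, 12.22, 12.53 and 12.54 in Str/ort, which is 2.14-fold lower (adjusted p = 0.000461). Alas2, the rate-limiting enzyme of haem synthesis in red cells, was lower at -0.67 ± 0.13. Bpgm, which makes the phosphoglycerate that tunes oxygen release, read 11.44, 11.52, 11.73 and 11.28 against 10.05, 10.02, 10.18 and 10.59, a difference of -1.28 ± 0.24.

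Epb42, which encodes protein 4.2 of the red cell membrane, read 11.56, 11.70, 11.81 and 11.54 in CBA and 10.35, 10.13, 10.60 and 10.92 in Str/ort (-1.15 ± 0.22). Epor, the erythropoietin receptor, read 10.66, 10.82, 11.04 and 10.69 against 9.56, 9.37, 9.86 and 10.01 (-1.10 ± 0.26, adjusted p = 0.0108). Tspo2, a mitochondrial protein of late red cell precursors, fell farthest, at -1.44 ± 0.21. In Str/ort replicate 4 the red cell genes stood highest among the Str/ort arrays, and CBA replicate 3 stood highest among the CBA arrays. The fit with the red cell mean as a covariate takes that mean from these same genes and cannot be read for them. Without that CBA array 23 of the 39 were called, and Epor was not (adjusted p = 0.0505). Platelet markers, made in the same marrow, were all below 0, with a median of -0.33 and none of 9 called. Neutrophil markers had a median of 0.04, with 1 of 23 higher and 2 lower.

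GATA factors bind the letters AGATAA and also the form TGATAA, and drive red cell genes. In the 250 bases before the start of transcription, as given in a RefSeq table of GRCm38.p6, 15 of 36 promoters of the red cell list (41.7%) held either form on either strand, against 13.5% of the 19115 promoters of all genes tested that had an entry. The promoters of Epb42 (chr2:121036878-121037127, minus strand) and Epor (chr9:21963577-21963826, minus strand) are shown as a pair of red cell genes that were lower, with the matching letters in capitals; the copy begins at position -226 from the start in Epb42 and at -54 in Epor.
Epb42: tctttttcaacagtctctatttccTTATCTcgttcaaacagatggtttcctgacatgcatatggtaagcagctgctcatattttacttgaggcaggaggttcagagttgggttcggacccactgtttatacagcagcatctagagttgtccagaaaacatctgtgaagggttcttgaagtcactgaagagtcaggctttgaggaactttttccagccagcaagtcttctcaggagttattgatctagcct
Epor: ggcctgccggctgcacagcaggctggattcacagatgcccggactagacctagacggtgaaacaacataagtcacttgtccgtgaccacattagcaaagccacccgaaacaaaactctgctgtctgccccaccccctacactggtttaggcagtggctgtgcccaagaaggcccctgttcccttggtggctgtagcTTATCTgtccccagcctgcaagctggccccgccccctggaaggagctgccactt
A match of letters is a description of the sequence and not a measured binding site.

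Genes of cell division formed the other group that was lower as a whole. Of 58 mitosis genes 36 were called lower, and all 58 differences were negative, with a median of -0.60. Of 47 DNA replication genes 27 were called lower, all 47 were negative and the median was -0.61. In 56 and 45 of them the strains did not overlap, against 16.4% of all genes that were lower without overlap. The kinetochore gene Cenph read 9.54, 9.39, 9.95 and 9.33 in CBA and 8.27, 8.53, 8.46 and 8.69 in Str/ort (-1.07 ± 0.27, adjusted p = 0.0149). Aspm, a spindle pole protein, read 10.33, 10.30, 10.53 and 10.12 against 9.52, 9.41, 9.51 and 9.73 (-0.78 ± 0.15, adjusted p = 0.0022). Mki67, the proliferation marker Ki-67, was lower at -0.59 ± 0.12. Of the replication genes, Orc1, which marks the origins, read 9.25, 9.21, 9.60 and 9.13 against 8.15, 8.19, 8.30 and 8.55 (adjusted p = 0.00952), without overlap. Ccne1, the cyclin of S phase entry, was lower at -0.86 ± 0.19, and 4 of 5 genes of nucleotide supply were lower. All these genes were highest in CBA replicate 3.

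The count depended on single arrays. Without CBA replicate 3, 7 mitosis and 5 replication genes were called, and without the 2 arrays of other ages that stood apart 58 and 45 were. Aspm, Mki67, Orc1 and Ccne1 kept their calls whichever 18-week array was left out, and Cenph lost its call on dropping CBA array 3, or Str/ort array 1 (highest adjusted p = 0.074). With both covariates no gene of either list was called, and each median was 0.06. The mitosis and red cell means moved together across the strains, from 10.47 to 10.77 and 11.48 to 11.74 in CBA to 9.93 to 10.16 and 10.44 to 10.98 in Str/ort, and the part of one in the other was not tested beyond this fit.

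Promoters of mitosis genes often carry CCAAT boxes bound by NF-Y and the cell cycle homology region TTTGAA. In the 250 bases before the start, 39 of 53 promoters of the mitosis list (73.6%) held CCAAT on either strand, against 34.6% of all promoters, and 25 (47.2%) held 2 or more copies, against 11.1%. TTTGAA was in 18 (34.0%), against 13.4%. The CCAAT share was not particular to the mitosis list. It was 26 of 44 (59.1%) in the replication list and 15 of 22 (68.2%) in the clock list, which was not lower as a whole. Among the DNA replication genes the E2F letters TTTCCCGC were in 5 of 44 promoters (11.4%), against 1.26% of all and 1.89% of the mitosis promoters. The promoters of Cdk1 (chr10:69352913-69353162, minus strand), the kinase that drives mitosis, and Ccnb2 (chr9:70421555-70421804, minus strand), a B-type cyclin that pairs with it, are shown because both genes were lower and both sequences hold several copies. Capitals mark CCAAT boxes and TTTGAA elements on either strand.
Cdk1: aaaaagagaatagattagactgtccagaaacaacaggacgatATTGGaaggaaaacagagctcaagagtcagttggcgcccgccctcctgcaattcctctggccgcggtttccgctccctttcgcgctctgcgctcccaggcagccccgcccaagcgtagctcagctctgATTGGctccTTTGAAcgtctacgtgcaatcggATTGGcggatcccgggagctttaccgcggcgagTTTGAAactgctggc
Ccnb2: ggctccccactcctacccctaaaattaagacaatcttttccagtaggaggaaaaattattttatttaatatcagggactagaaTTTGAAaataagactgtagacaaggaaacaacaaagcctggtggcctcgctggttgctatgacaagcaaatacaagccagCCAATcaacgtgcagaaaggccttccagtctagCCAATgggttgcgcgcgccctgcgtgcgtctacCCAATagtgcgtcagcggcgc
Cdk1 was lower at -0.60 ± 0.17 (adjusted p = 0.032) and Ccnb2 at -0.52 ± 0.13 (adjusted p = 0.0157). Cdk1 lost its call on dropping CBA array 1 or 3, or Str/ort array 1, 2 or 3, and Ccnb2 without CBA array 3, or Str/ort array 1 (highest adjusted p = 0.121).

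**Figure D3:**
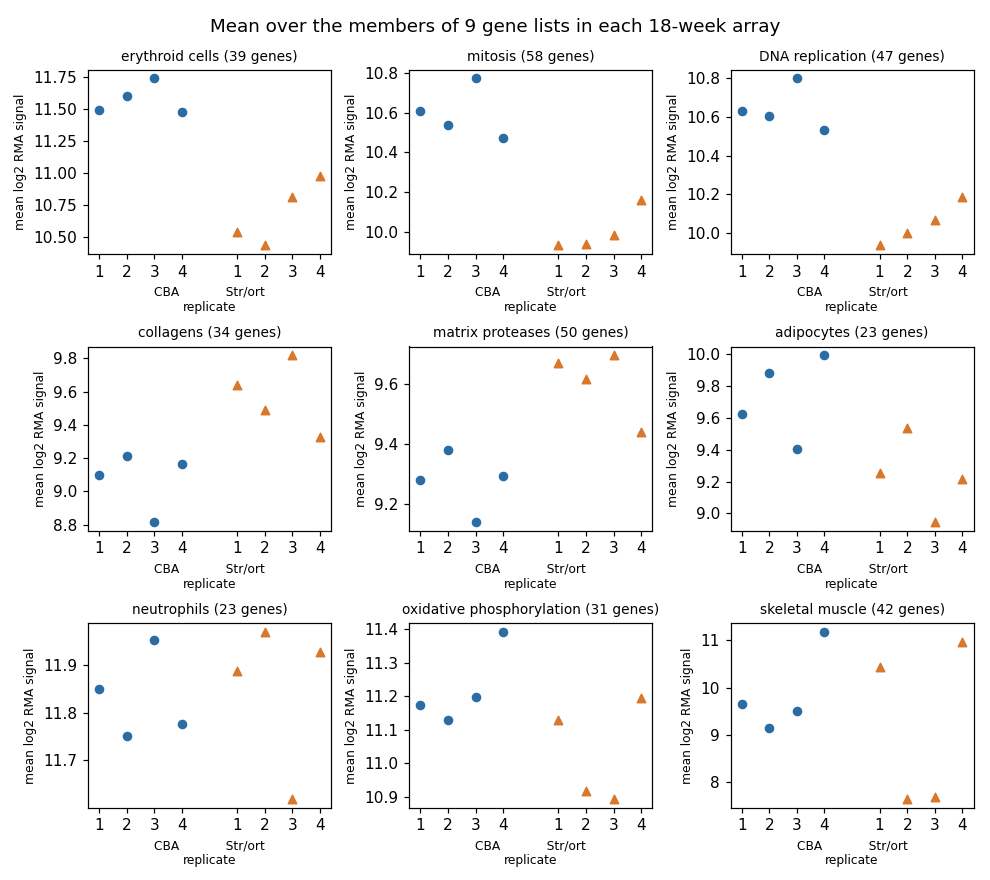
Mean log2 RMA signal over the measured members of 9 gene lists in each 18-week array, CBA (blue circles) and Str/ort (orange triangles), numbered by replicate. Red cell (erythroid), mitosis and DNA replication means separate the strains downward in Str/ort and collagens upward, while neutrophil and muscle means overlap.

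Macrophage markers changed in both directions. Of 20 markers of resident tissue macrophages 8 were lower and none higher, while of 9 markers of activated macrophages 3 were higher and none lower, and none of 5 monocyte markers was called. Cd5l, a secreted protein of tissue macrophages, read 7.72, 7.76, 8.36 and 7.14 in CBA and 6.18, 6.03, 6.24 and 6.05 in Str/ort (-1.62 ± 0.28, 3.08-fold lower). Siglec1, a sialic acid receptor of marrow and lymph node macrophages, was lower at -0.96 ± 0.16. Spic, the transcription factor of the macrophages that clear red cells, read 9.63, 9.22, 9.91 and 8.94 against 8.21, 7.95, 7.94 and 8.59 (-1.25 ± 0.29). Chit1, a chitinase of activated macrophages, read 6.69, 6.91, 6.73 and 6.52 against 8.34, 8.33, 7.94 and 8.58, a 3.00-fold higher level (1.59 ± 0.16, adjusted p = 1.97e-06). The lipid receptor Trem2 (0.53 ± 0.14) and the scavenger receptor Msr1 (0.74 ± 0.21) were also higher. Spic lost its call on dropping CBA array 3 (adjusted p = 0.0535), Trem2 without CBA array 3 or 4, or Str/ort array 1 or 2, and Msr1 on dropping any CBA array or Str/ort array 1 or 2 (highest adjusted p = 0.115). With both covariates Itgad was lower and Chit1 higher, and no other marker of the 34 was called. Without the 2 arrays that stood apart Itgad alone was called, and Chit1 was at 1.53 (adjusted p = 0.0556).

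Lymphocyte markers were mostly not called, but most lay below 0. Of 28 T and NK cell genes 3 were lower (10.7%, against 6.02% of all genes) and none higher. These were 2 chains of the CD3 complex and Ncr1, an activating receptor of NK cells (-0.90 ± 0.22). The median of the list was -0.21, and 21 of its 28 differences were negative, while 54.9% of all genes were positive. Among the 7 measured genes of the T cell receptor complex the differences ran from -1.75 for Cd3d to 0.12. Of 25 B cell genes 2 were lower (8.0%) and none higher, with a median of -0.30 and 19 negative differences. Cd72, an inhibitory co-receptor of B cells, read 10.99, 11.03, 11.35 and 11.62 in CBA and 9.81, 9.50, 10.38 and 10.03 in Str/ort (-1.32 ± 0.18, adjusted p = 0.000116). Rag1, the recombinase of B cell precursors, was at -0.60 ± 0.19 (adjusted p = 0.0492). Ncr1 lost its call on dropping CBA array 1 or 3, or Str/ort array 2, and Rag1 on dropping any array except CBA array 4 (highest adjusted p = 0.195). With both covariates Cd3d was called (-1.08 ± 0.22) and Cd72 was not (-0.80 ± 0.26, adjusted p = 0.139), and without the 2 arrays that stood apart no marker of either list was called.

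Granulocyte genes held some of the largest differences of single genes. Ccr3, the eotaxin receptor of eosinophils, read 10.17, 10.09, 10.49 and 9.36 in CBA and 7.40, 7.51, 6.83 and 7.72 in Str/ort, and was the only one of 8 eosinophil markers that was called. Mcpt8, a protease of basophils, read 10.72, 10.20, 10.76 and 10.32 against 12.01, 11.61, 11.37 and 11.64 (1.16 ± 0.25, 2.23-fold higher). Its relative Mcpt2, a mast cell protease, read 5.78, 5.55, 5.92 and 5.60 against 9.37, 9.62, 8.96 and 9.51, which is 12.6-fold higher (adjusted p = 2.24e-11). None of the other 11 mast cell and basophil genes was called. With both covariates Ccr3 (-1.88 ± 0.36), Mcpt8 (1.71 ± 0.34) and Mcpt2 (3.39 ± 0.32) were called, and without the 2 arrays that stood apart Mcpt2 alone of these was. These proteases belong to a gene family with close copies, so the probe sets may read more than 1 member.

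Bone cell markers leaned upward. Of 17 osteoclast markers 4 were higher and 1 lower, with a median of 0.35. The higher ones were the fusion genes Dcstamp and Ocstamp (0.51 ± 0.14), the calcitonin receptor Calcr (0.42 ± 0.13) and the RANKL receptor Tnfrsf11a (0.35 ± 0.10). The lower one was Car2 (-0.70 ± 0.14, adjusted p = 0.00405). Of 14 osteoblast and osteocyte markers 2 were higher, none was lower and the median was 0.42. Dmp1, a matrix protein of osteocytes, read 9.64, 9.99, 9.11 and 9.32 in CBA and 11.11, 11.88, 10.51 and 10.05 in Str/ort (1.37 ± 0.32, adjusted p = 0.0107). All Str/ort arrays lay above all CBA arrays, with replicate 2 the highest. Dmp1 lost its call on dropping CBA array 3 (adjusted p = 0.0541), Ocstamp without CBA array 1, 3 or 4, or Str/ort array 1 or 3, Tnfrsf11a without CBA array 3 or 4, or Str/ort array 1, 2 or 3, and Calcr on dropping any array except Str/ort array 4 (highest adjusted p = 0.118). Dcstamp and Car2 kept their calls. With both covariates no bone cell marker was called, and Dmp1 was at 0.83 ± 0.48 (adjusted p = 0.421), or at -0.52 without the 2 arrays that stood apart.

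Fat cell markers were lower, with 7 of 23 called lower, none higher and a median of -0.48. Adipoq, which encodes the fat cell hormone adiponectin, read 11.01, 10.91, 10.65 and 11.24 in CBA and 10.12, 10.28, 10.01 and 9.92 in Str/ort (-0.87 ± 0.25). Cidec, a protein of lipid droplets, read 9.60, 9.80, 8.77 and 10.30 against 8.31, 9.35, 8.11 and 7.82 (-1.22 ± 0.38), with overlap. Aqp7, the glycerol channel of fat cells, was lower at -0.92 ± 0.24, and Cd36, a fatty acid receptor, at -0.70 ± 0.16. Adipoq and Cidec lost their calls on dropping any array except CBA array 3 and Str/ort array 2, Aqp7 without CBA array 1 or 4, or Str/ort array 1 or 3, and Cd36 on dropping Str/ort array 3 (highest adjusted p = 0.141). With both covariates the median of the fat cell list was -0.46 and Aqp7 was the only member called (-1.34 ± 0.32), and without the 2 arrays that stood apart no member was called.

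None of the 42 skeletal muscle markers was called by limma (0 at an unadjusted p under 0.05), although their median was -0.76. Myot, a protein of the muscle Z-disc, read 10.51, 9.55, 10.48 and 12.37 in CBA and 10.79, 7.03, 7.11 and 11.91 in Str/ort, which spans nearly as much within Str/ort as between any arrays of the comparison. Muscle RNA was thus lowest in Str/ort replicates 2 and 3 and highest in replicate 4 of both strains. With the muscle mean alone as a covariate 2705 genes were called, including 1737 of the 1742. None of 31 oxidative phosphorylation genes was called by limma (5 at an unadjusted p under 0.05, against 4799 of all genes), all 31 were below 0, and their median was -0.17. Pericyte markers had a median of 0.43 with 2 of 9 higher, and those of endothelium one of -0.12 with 2 of 17 higher and 1 lower.

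Some single genes differed far more than any list. BC018473, a clone-named gene picked out after its values were seen, rose farthest, from 6.40, 6.52, 6.39 and 6.43 in CBA to 11.73, 11.75, 10.55 and 10.96 in Str/ort (4.81 ± 0.22, 28.1-fold, adjusted p = 3.31e-12), and was called in each fit that dropped 1 of the 18-week arrays. H2-Ea, which encodes one chain of the class II antigen-presenting molecule E, read 12.69, 12.55, 12.66 and 12.53 in CBA and 7.24, 7.06, 6.83 and 7.01 in Str/ort. The 47.6-fold gap (-5.57 ± 0.18, adjusted p = 8.43e-15) was the largest fall of any gene. Some mouse MHC haplotypes are known not to express this chain, and the haplotypes of these mice were not tested here. The other 9 class II genes were not called, so the fall was that of 1 gene and not of the class. Gdpd3, a lysophospholipase D, read 7.90, 7.77, 8.09 and 7.82 against 11.62, 11.71, 11.50 and 11.89, which is 13.7-fold higher. Both genes were called in every alternative fit that was run.

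Complement genes moved in opposite directions, with 5 of 27 higher and 3 lower. C1s1, the protease that cleaves C4 and C2, read 4.92, 5.84, 5.09 and 5.15 in CBA and 9.26, 9.41, 8.97 and 8.99 in Str/ort (3.91 ± 0.52, adjusted p = 8.41e-05). C4b read 8.67, 8.88, 8.59 and 8.81 against 10.57, 11.30, 10.92 and 10.28 (2.03 ± 0.21), and its near copy C4a was higher by 0.90 ± 0.17. C2, by contrast, read 8.23, 8.19, 8.27 and 8.11 against 7.47, 7.43, 7.66 and 7.60 (-0.66 ± 0.12), and the lectin gene Fcna was lower at -1.37 ± 0.24. Both substrates of this protease thus differed between the strains, C4 upward and C2 downward. C4a and C4b, and C1s1 and its neighbour C1s2 (1.09 ± 0.18), are close copies whose probes may read each other. All 6 of these genes kept their calls whichever array was left out. With both covariates C1s1 (3.90 ± 0.85) and C4b (1.63 ± 0.27) were called, and C4a (adjusted p = 0.195), C1s2 (adjusted p = 0.102), C2 (adjusted p = 0.197) and Fcna (adjusted p = 0.27) were not. Without the 2 arrays that stood apart as well, none of the 6 was called (C1s1 adjusted p = 0.372, C4b adjusted p = 0.153).

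Of 56 interferon response genes 10 were higher and 7 lower. The p200 family, DNA sensors whose genes form a cluster, was divided, with Ifi202b (7.32, 7.52, 7.37 and 6.90 in CBA against 9.06, 9.01, 8.12 and 8.43) higher by 1.38 ± 0.23. Ifi214 read 8.00, 7.91, 8.35 and 8.10 against 6.44, 6.24, 6.21 and 5.98 (-1.87 ± 0.16), and Ifi209 was lower at -1.75 ± 0.22. In the Trim family, Trim12a read 6.04, 5.87, 6.11 and 5.73 against 9.53, 9.61, 9.07 and 9.54, an 11.3-fold higher level, and Trim30d was 7.72-fold higher, while Trim12c was lower (-0.63 ± 0.19, adjusted p = 0.04). Antiviral effectors were higher in 5 of 24 cases and lower in 1, with Ifitm1 at 1.19 ± 0.16 and Oasl1 at 0.92 ± 0.17. None of 8 sensors and transcription factors of the pathway was called. The p200, Trim and Oas genes are families of close copies, so their probe sets may read more than 1 member. Trim12c lost its call on dropping CBA array 1, 2 or 3, or Str/ort array 1, 2 or 3 (highest adjusted p = 0.136), and the other genes named here kept theirs. With both covariates Ifi209, Ifi214, Trim12a, Trim30d and Ifitm1 were called, and Ifi202b (adjusted p = 0.0776) and Oasl1 (adjusted p = 0.202) were not. Without the 2 arrays that stood apart Ifi209 (adjusted p = 0.464) and Ifitm1 (adjusted p = 0.269) lost their calls too.

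Among 73 cytokine and chemokine genes 8 were higher and 3 lower. Of 23 chemokines 5 were higher and 2 lower, and none of 15 cytokines was called. Cxcl16, a membrane-bound chemokine, was higher by 0.76 ± 0.16, and Cxcl13, which attracts B cells, read 6.92, 7.40, 6.72 and 6.83 in CBA and 8.08, 8.69, 7.45 and 7.52 in Str/ort (0.97 ± 0.25). Cxcl12, which holds blood-forming cells in the marrow, was lower, at 12.51, 12.32, 12.37 and 12.39 against 11.66, 11.36, 11.92 and 12.02 (-0.66 ± 0.15). Ccl5 was lower at -0.76 ± 0.19. The decoy interleukin 1 receptor Il1r2 read 8.80, 8.91, 9.02 and 8.62 against 10.32, 10.18, 9.21 and 9.81, a difference of 1.04 ± 0.22. Cxcl13 lost its call on dropping CBA array 1 or 3, or Str/ort array 1 or 2, and Ccl5 without CBA array 1 or 3, or Str/ort array 2 (highest adjusted p = 0.0841). With both covariates 9 of the 73 were called higher and 1 lower, with a median of 0.27, against 0.17 without covariates. Of the genes named here Il1r2 alone was called in that fit (1.47 ± 0.33). Without the 2 arrays that stood apart as well, none of the 73 was called. Il1r2 then had an adjusted p of 0.687, and Cxcl12 was at -0.17.

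Stress and clock genes gave a mixed picture. Of 24 genes of the unfolded protein response 5 were higher, none lower, and the median was 0.23. Hspa5, the chaperone BiP of the endoplasmic reticulum, read 12.38, 12.42, 12.41 and 12.29 in CBA and 12.78, 12.71, 12.78 and 12.75 in Str/ort, a small difference of 0.38 ± 0.11 with no overlap. Creb3l1, a stress sensor of collagen-secreting cells, was higher by 0.82 ± 0.23. Of 38 redox and senescence genes 11 were lower and none higher, led by Hmox1, which breaks down haem (-0.83 ± 0.24), and Gclm, which serves glutathione synthesis (-0.72 ± 0.20). The last gene read 12.23, 12.22, 12.42 and 12.17 against 11.40, 11.36, 11.64 and 11.76 and is also abundant in red cell precursors; with both covariates it was at 0.13. Hspa5 was then at 0.63 ± 0.15 and called, and without the 2 arrays that stood apart it was at 0.48 and not called (adjusted p = 0.351). Hspa5, Creb3l1, Hmox1 and Gclm all lost their calls on dropping CBA array 1 or 3, or Str/ort array 1 or 2, and some without other arrays (highest adjusted p = 0.134).

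Of 18 clock genes 2 were called higher and 1 lower, with a median of 0.06. The lower one was the output factor Dbp (-0.53 ± 0.12, adjusted p = 0.00937), without overlap of the strains. The higher ones were Per1 and the output factor Nfil3 (0.50 ± 0.09, adjusted p = 0.00157). At 40 weeks Dbp (-0.69 ± 0.12) and Nfil3 (0.40 ± 0.09) were called again, and at 8 weeks neither was. Per1 is a repressor of the clock that glucocorticoids and light also induce. It read 9.07, 9.31, 8.93 and 9.29 in CBA and 10.36, 10.52, 9.77 and 9.59 in Str/ort. Its strain difference was 0.91 ± 0.17 at 18 weeks, -0.10 ± 0.19 at 8 weeks and 0.14 ± 0.17 at 40 weeks. The 18-week value lay above both others by an unadjusted p of 0.000623 and 0.00475, neither of which passed adjustment over all genes. Nr4a3, an immediate early gene, showed the same order, with 0.83 ± 0.22 at 18 weeks, -0.46 ± 0.24 at 8 weeks and 0.29 ± 0.22 at 40 weeks. Its level in Str/ort at 18 weeks was 7.77, 8.58, 7.23 and 7.45, with replicate 2 the highest, against 6.69 to 7.14 in CBA. Nr4a3 lost its call on dropping CBA array 1 or 3, or Str/ort array 1 or 2 (highest adjusted p = 0.0856). With both covariates Per1 was at 0.41 ± 0.26 (adjusted p = 0.478) and Nr4a3 at 0.36 ± 0.36 (adjusted p = 0.658), and without the 2 arrays that stood apart they were at -0.15 and -0.20. The hour at which tissue was taken is not given in the labels.

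The 18-week difference was set beside the other ages. Limma called 347 genes at 8 weeks (1.74% of all genes, 1.21% higher and 0.532% lower) and 714 at 40 weeks (3.58%, 1.22% higher and 2.36% lower). Of the 1742 genes called at 18 weeks 201 were also called at 8 weeks (11.5% of the 1742 and 57.9% of the 347) and 473 at 40 weeks (27.2% and 66.2% of the 714), always in the same direction. In 156 genes the strains differed at all 3 ages, 90 higher and 66 lower, and 1224 were called at 18 weeks and at neither other age. The arrays of each age are separate samples. Being called at 1 age and not another does not show a difference between ages, which was tested directly.

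By that test no gene had a strain difference at 18 weeks that differed from that at 8 weeks (0 of 19937, 0.0%, limma; 4204 at an unadjusted p under 0.05, lowest adjusted p = 0.205) or at 40 weeks (0 of 19937, 0.0%; 541 unadjusted, lowest adjusted p = 0.993). Without the 2 arrays that stood apart 281 genes differed between 18 and 8 weeks, 30 upward and 251 downward, with array weights 1059 did, and without CBA 18 weeks replicate 3 alone 1 did, while no fit called a gene between 18 and 40 weeks. The differences of H2-Ea were -5.84 ± 0.19, -5.57 ± 0.18 and -5.19 ± 0.18 at 8, 18 and 40 weeks. Those of Mcpt2 were 3.62, 3.65 and 3.64, and those of C4b were 1.88, 2.03 and 2.00, in each case with an SE of 0.19 to 0.23. Chit1 differed by 1.56, 1.59 and 1.88.

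The medians of the lists followed no common order over the ages. The median over the red cell list was -0.15 at 8 weeks, -0.87 at 18 weeks and -0.30 at 40 weeks, with 1, 37 and 4 genes lower. That over the mitosis list was -0.05, -0.60 and -0.15, with 0, 36 and 0 lower, and that over the replication list 0.01, -0.61 and -0.23, with 0, 27 and 0 lower. Collagens had medians of 0.02, 0.41 and 0.29 with 0, 14 and 6 higher. Collagen processing enzymes had 0.44, 0.38 and 0.40, and matrix proteases 0.32, 0.24 and 0.20, both farthest from 0 at 8 weeks. In the first lists, Epb42 (-0.13, -1.15 and -0.36) and Aspm (-0.05, -0.78 and -0.34), followed the same order, with an unadjusted p of 0.00475 and 0.00263 for 18 against 8 weeks. Dmp1 was at -0.04, 1.37 and 0.34, with an unadjusted p of 0.0075 against 8 weeks. The muscle medians over the same ages were -2.53, -0.76 and -0.25, and the groups at 8 weeks held 3 Str/ort arrays.

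**Figure D4:**
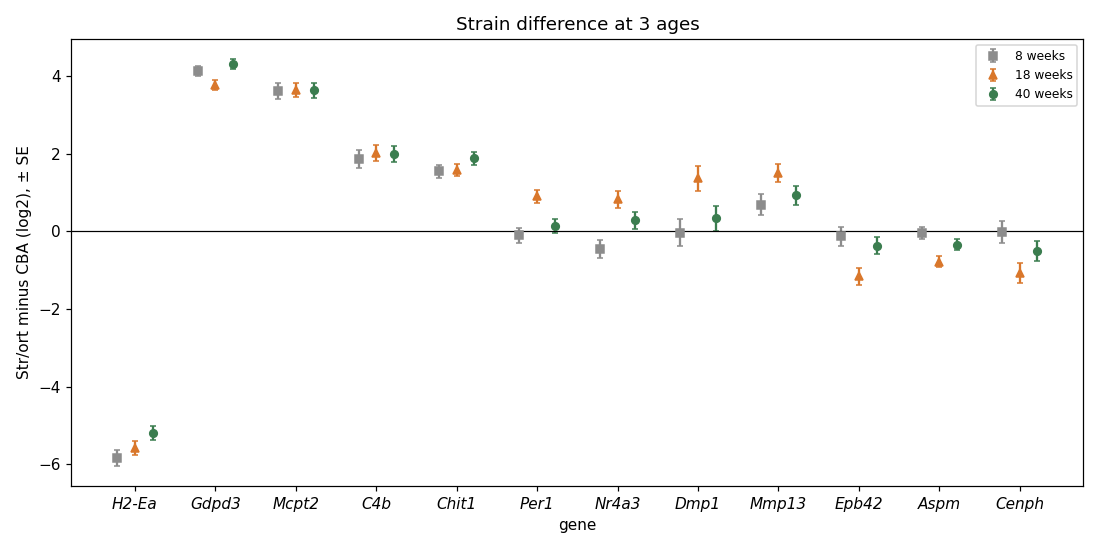
Strain difference (Str/ort minus CBA, log2) with its SE at 8, 18 and 40 weeks for 12 genes; each group has 4 arrays, or 3 in the 8-week Str/ort group, and 0 marks no difference. H2-Ea, Gdpd3, Mcpt2, C4b and Chit1 differ from 0 at all 3 ages, while Per1, Nr4a3, Dmp1, Epb42, Aspm, Cenph and Mmp13 lie farthest from 0 at 18 weeks.

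With both covariates and without the 2 arrays that stood apart, 36 genes were called, 14 higher and 22 lower. Of these 31 were among the 1742, and the other 5, Eno2, Fam234b, Plek2, Sbspon and Snapin, were not called without the covariates. H2-Ea (-5.53), Ifi214 (-1.99), Itgad (-1.71), Ttc9 (-1.65), Adh1 (-1.52) and the amino acid transporter gene Slc6a20a (-0.82) were lower, and Gdpd3 (4.17), BC018473 (4.11), Ly6a2 (3.67), Mcpt2 (3.64), Trim12a (3.58) and Trim30d (2.70) were higher. Adh1, an alcohol dehydrogenase that also oxidises retinol, read 10.35, 10.39, 10.46 and 10.66 in CBA and 8.31, 8.26, 8.16 and 8.78 in Str/ort. Ly6a2, of the Ly6 surface antigen family, read 9.76, 9.67, 10.02 and 9.60 against 13.39, 13.42, 13.12 and 13.30, an 11.7-fold higher level. Its family is one of close copies, and its neighbours Ly6i (1.28) and the neutrophil marker Ly6g (-0.60) moved in opposite directions, neither of them called with both covariates (adjusted p = 0.146 and 0.135). No member of the matrix, red cell or cell division lists was among the 36. The red cell mean is a covariate taken from the red cell list, so for that list this cannot be read as a result.

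Serpina1c, an antitrypsin gene of liver, had a large difference that 1 array raised. It read 4.77, 5.39, 4.42 and 4.98 in CBA and 5.73, 9.47, 6.69 and 6.27 in Str/ort, a difference of 2.15 ± 0.65. Str/ort replicate 2 stood far above the other 7 arrays. Without it the difference was 1.34, and the other Str/ort arrays still lay above every CBA array. The call was lost on dropping Str/ort array 2 or 3 or any CBA array (highest adjusted p = 0.152).

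Called genes were also set in genome order. Of 19832 pairs of neighbouring genes both were called in 221 (1.11%), and 159 of these pairs (71.9%) went in the same direction. Of all genes 8.74% were called, and 31.1% of the called genes were higher. Unequal directions alone make some pairs share a direction, and the share they would give was not worked out here. The part of gene order in these shares was not tested. There were 32 runs of 3 or more called neighbours, and 2 of these held 4 genes. The first was Btg2 (-0.48), Chit1 (1.59), Chil1 (0.94) and Mybph (0.41), in which the chitinase-like gene Chil1, a marker of inflamed cartilage, lies beside Chit1. Chil1 read 12.13, 12.17, 12.21 and 11.91 in CBA and 13.03, 13.09, 13.06 and 13.00 in Str/ort, with no overlap. The second was Xpo7 (-0.91), Dok2 (0.60), Gfra2 (-0.80) and Fndc3a (0.31), in which the directions alternate. Chit1, Chil1, Xpo7 and Dok2 kept their calls whichever array was left out, while Btg2 and Gfra2 lost theirs on dropping CBA array 3, or Str/ort array 1, Btg2 also on dropping Str/ort array 2, Mybph on dropping any CBA array or Str/ort array 1 or 3, and Fndc3a on dropping any of the 8 arrays (highest adjusted p = 0.14). With both covariates Chit1, Chil1 and Dok2 were called and Xpo7 was not (adjusted p = 0.652), and without the 2 arrays that stood apart none of the 8 was called.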

How the data were processed

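RNA of articular cartilage was hybridised to Affymetrix Mouse Gene 1.0 ST arrays, and the authors deposited log2 values made with RMA, per the submitters' processing notes. The number of probes limits the precision, and depth has no meaning here. Of 34760 transcript clusters, 21640 name 1 gene, 1321 name several and 11799 name none. The brightest cluster stood for each of 954 genes with several clusters, which gave 19937 genes, of which 19855 were matched to RefSeq by Entrez identifier. Groups came from the sample titles. Limma 3.58.1 in R 4.3.3 was fitted with 1 mean per group over all 23 arrays and Benjamini-Hochberg adjustment over all genes, and it was tested on simulated data. The labels hold no scan date. Same-numbered replicates of the strains did not deviate together in every pair, so the numbers were not used to pair samples.

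The comparison, its members and the 37 gene lists (1113 measured symbols) were chosen with earlier results of these data known. Genes were named as the 15 largest rises and falls without overlap, passing over predicted, clone and numbered symbols, up to 6 called members per list by size (2 where none was called), 12 cartilage genes given always, and the longest runs of called neighbours; not every gene chosen this way is described, and further list members were named after their values were seen. Alternatives covered filters, cluster choice, normalisation, weights, trend, blocks, covariates and left-out arrays, and the fit that joins both covariates with leaving out 2 arrays was chosen after seeing the data. Promoter sequences came from a RefSeq table of GRCm38.p6.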

Additional observations from a re-analysis of the deposited data

Results flagged for a closer look

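In 13 of 338 groups of 4 arrays searched (3.85%), 1 array lay far from the other 3 by Dixon's test, where chance gives about 5%. In Str/ort, replicate 3 was high for Col2a1 (11.38, the others 10.04 to 10.24) and low for Hmox1 (10.94, the others 11.29 to 11.33), Trim12a (9.07, the others 9.53 to 9.61) and Trim30d (8.22, the others 8.84 to 8.95). Str/ort replicate 4 was low for Col4a1 (9.27, the others 9.43 to 9.44) and Col6a2 (10.42, the others 10.88 to 10.95) and high for Nfe2 (11.31, the others 11.09 to 11.10). In CBA, replicate 1 was high for Mmp13 (11.32, the others 10.73 to 10.79), replicate 2 high for Mmp19 (8.97, the others 8.53 to 8.60), replicate 3 high for Tspo2 (10.90, the others 10.60 to 10.62) and replicate 4 low for Msr1 (8.42, the others 8.72 to 8.77). Over whole lists, CBA replicate 4 was high for glycolysis (mean 11.01, the others 10.71 to 10.72) and CBA replicate 3 for B cell markers (mean 10.17, the others 9.98 to 10.01).

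Transcript clusters outside the 19937 genes also differed between the strains. In a fit over all 34760 clusters, 49 of 1321 clusters that name several genes were called higher and 41 lower (6.81%). Of 11799 that name none, 162 were called higher and 367 lower (4.48%). Both shares lay below the 7.05% called in the same fit among the 21640 clusters that name 1 gene.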

How the results depend on the processing

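The strain difference at 18 weeks gave 1742 called genes. The count was 6218 with array weights, 2705 with the muscle mean as a covariate, 221 with the muscle and red cell means, 4169 with the 18-week arrays fitted alone, 5150 without the 2 arrays that stood apart (replicate 1 of CBA at 8 weeks, replicate 3 of CBA at 40 weeks), and 36 with both covariates and without those 2 arrays; the cause was not tested. Leaving out single 18-week arrays gave 687 to 1755. The other alternatives stayed within 1.5 times the count. Quantile normalisation called 767 higher and 1066 lower, against 541 and 1201. With the replicate number as a block 1419 genes were called, 449 higher and 970 lower, 1398 of them among the 1742; the numbers do not pair the samples (correlations of -0.162, 0.408, -0.0916 and 0.396 for replicates 1 to 4). For the difference between 18 and 8 weeks, 1059 genes were called with array weights and 281 without the 2 arrays, against 0, and 0 to 1 with single arrays left out; for 18 and 40 weeks the count was 0 in each, with 541 genes at an unadjusted p under 0.05 by limma. Signs turned mainly in the covariate fits, with a call for Fam234b only. Its difference was 0.050 with quantile normalisation, 0.75 with both covariates, 0.72 with these and without the 2 arrays, and -0.13 to 0.031 with single arrays left out. With both covariates the other differences were Acan -0.24, Btg2 0.023, Cdk1 0.10, Col10a1 -0.64, Comp -0.10, Epor 0.12, Gclm 0.13, Nfe2 0.34, Orc1 0.0065, Rag1 0.078, Sox9 -0.32 and Zfpm1 0.24. With both covariates and without the 2 arrays they were Acan -1.50, Adamts12 -0.10, Adamts5 -0.57, Ccne1 0.0098, Col10a1 -0.74, Col2a1 -0.088, Col3a1 -0.20, Col6a2 -0.17, Comp -1.55, Creb3l1 -0.13, Dmp1 -0.52, Epb42 0.021, Fgfr1 -0.42, Htra1 -0.10, Itga5 -0.27, Mmp2 -0.12, Mmp3 -0.038, Nfe2 0.035, Nr4a3 -0.20, P4ha1 -0.14, Pcolce -0.11, Per1 -0.15, Plod2 -0.22, Prg4 -0.13, Serpina1c -0.80, Sox9 -0.66, Timp2 -0.17, Timp3 -0.39 and Zfpm1 0.0022. Comp ran from -0.002 to 0.40 with single arrays left out. Of 114 called genes followed through these fits 66 kept their calls whichever 18-week array was left out. Dbp, Nfil3, Car2, Col6a5 and Col25a1 are named above and were not among the 114. Precision is limited by 4 arrays per strain, and the red cell means of the strains do not overlap.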
